A study of Mus musculus with 6 samples.

Results

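Receptors that bind the constant part of IgG were examined in skeletal muscle of mdx mice, a strain without functional dystrophin whose fibres break down and are rebuilt among infiltrating leukocytes. The set held 6 genes chosen by family: the activating receptors Fcgr1, Fcgr3 and Fcgr4, the gamma chain Fcer1g through which they signal, the inhibitory receptor Fcgr2b, and the neonatal receptor Fcgrt. A gene counted as measured when a probe set carried its symbol and no other, which gave 5 of the 6 among 19752 measured genes. Fcgrt is not analysed here. All 6 samples came from mdx muscle with a stated age of 6 weeks, labelled male. In 3 of them the mice had received anti-CD25 (clone PC61), a rat antibody against the interleukin-2 receptor alpha chain given to deplete regulatory T cells, and in the other 3 they had received rat IgG as the control antibody. Each antibody was injected 2 times into the peritoneum, first at day 17 of age and again at day 20. Dissection followed 7 days past the last dose by the design text, which is earlier than the labelled age. Every animal had therefore been given rat immunoglobulin, and no uninjected muscle is part of the comparison. How much of it was left at dissection is not known. Nothing says whether the samples of a group are separate animals or pools, so the spread between them may be partly technical.

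Fc gamma receptors link antibody to leukocytes. When IgG complexes gather the activating receptors, the paired tyrosines (the ITAM) in the tail of Fcer1g are phosphorylated by Src-family kinases and recruit the kinase Syk, which leads to phagocytosis, cytokine release and killing. Fcgr2b carries a single inhibitory tyrosine motif (the ITIM) instead, which recruits the phosphatase encoded by Inpp5d and restrains the same cells, so the balance of both kinds sets the threshold for a response. Macrophages and monocytes carry all 4 receptors, NK cells carry chiefly Fcgr3 and B cells chiefly Fcgr2b. In muscle homogenate, more cells of a type and more RNA per cell cannot be told apart.

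The arrays were alike in median brightness, at intensities of 149.8 to 151.5, and correlated across genes at 0.991 to 0.996. Their dim ends differed. In replicate order the lower quartile was 57.7, 57.7 and 51.2 with rat IgG and 51.9, 51.4 and 56.5 with anti-CD25. The part of this split in counts over dim genes and over all genes was not tested. Rat IgG 3 correlated at 0.991 with both other rat IgG arrays and at 0.993 to 0.995 with the anti-CD25 arrays. Xist, expressed from the inactive X chromosome, lay at 11.77 to 11.94 log2 units on replicates 1 and 2 of each group and at 5.48 and 5.49 on replicate 3 of each, so 4 arrays went against the label male. The label muscle was borne out by fibre genes, whose 8 markers had a median level of 13.3 log2 units, against 7.28 for all genes. The number of arrays limits the precision of every value below.

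The stretches of DNA before the start of each measured gene are shown because the receptors varied together over the arrays while belonging to opposed classes. The windows run from 130 bases before to 20 bases after a RefSeq start (assembly GRCm38.p6, gene strand, 5′ to 3′), and all 6 genes had an entry. Fcgr1 lies on chromosome 3, and the other 4 measured genes lie on chromosome 1. Capitals mark matches, on either strand, to GAGGAAG, the purine-rich kind of word that the myeloid factor PU.1 recognises, or to TTCNNNGAA, the palindrome recognised by STAT factors that interferons activate.
Fcgr1 (chr3:96293950-96294099, minus strand): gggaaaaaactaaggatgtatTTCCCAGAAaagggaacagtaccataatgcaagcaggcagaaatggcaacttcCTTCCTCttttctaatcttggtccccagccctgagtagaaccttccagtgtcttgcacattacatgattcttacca
Fcgr3 (chr1:171059384-171059533, minus strand): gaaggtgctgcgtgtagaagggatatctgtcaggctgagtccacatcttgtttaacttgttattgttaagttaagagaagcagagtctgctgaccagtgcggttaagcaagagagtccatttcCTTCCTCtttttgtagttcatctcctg
Fcgr4 (chr1:171018796-171018945, plus strand): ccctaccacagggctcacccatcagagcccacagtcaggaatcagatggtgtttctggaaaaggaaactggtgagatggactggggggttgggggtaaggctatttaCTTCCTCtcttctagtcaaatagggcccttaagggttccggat
Fcer1g (chr1:171234330-171234479, minus strand): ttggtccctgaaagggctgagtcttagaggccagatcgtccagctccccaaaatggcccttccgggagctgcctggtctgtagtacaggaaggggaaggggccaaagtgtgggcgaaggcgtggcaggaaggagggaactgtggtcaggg
Fcgr2b (chr1:170976052-170976201, minus strand): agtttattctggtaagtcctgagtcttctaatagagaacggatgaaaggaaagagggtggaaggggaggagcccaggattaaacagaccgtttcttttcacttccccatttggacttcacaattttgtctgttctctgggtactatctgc

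GAGGAAG stood in the windows of the 3 activating receptors, beginning 56 bases before the start in Fcgr1, 7 in Fcgr3 and 23 in Fcgr4, each time on the opposite strand. It was not in the windows of Fcer1g, Fcgr2b or Fcgrt. Only this exact spelling was searched. Purine-rich runs of other spelling, present in the windows of Fcer1g and Fcgr2b, were not counted. Of 32851 promoter windows of 150 bases in the table, 7.01% held it. TTCNNNGAA stood only in Fcgr1 among the 6, beginning 109 bases before the start, and 4.10% of all windows held it. The matches did not overlap. Fcgr1 and Fcgr3, on different chromosomes, shared the 14-base run TTCCTTCCTCTTTT, which contains their GAGGAAG match. That run was in 4 windows of the table, which belong to Fcgr1, Fcgr3 (entered with 2 starts) and Dock2. The second Fcgr3 start lies close to the first and its window held the same match. The motifs were picked after the sequences had been read, and a match describes letters, not a bound factor.

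All 5 measured genes stood higher on average with anti-CD25, by 1.17- to 1.41-fold, or by 0.38 log2 units for the inhibitory receptor and 0.39 for the mean of the activating ones. None passed the test, a linear model across all genes with limma and Benjamini-Hochberg adjustment, and 0% of the 19752 genes passed it at an adjusted p of 0.05. In each of the 5 the groups overlapped: anti-CD25 1 and 3 lay above every rat IgG array, and anti-CD25 2 lay among them. Differences are anti-CD25 minus rat IgG in log2 units throughout.

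Fcgr3, the low-affinity activating receptor of macrophages and NK cells, had the largest difference of the 5. In replicate order it measured 9.68, 9.25 and 9.81 log2 units with rat IgG and 10.31, 9.74 and 10.17 with anti-CD25. The lowest value was rat IgG 2, and anti-CD25 2 fell short of rat IgG 3 by a small margin. The mean went from 9.58 ± 0.29 (SD, n = 3) to 10.08 ± 0.30 (SD, n = 3). The difference was 0.49 (SE 0.18, 95% interval 0.090 to 0.90), a 1.41-fold change (limma adjusted p = 0.750). It was 0.33 without rat IgG 2.

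Fcgr4, an activating receptor confined largely to myeloid cells that binds mouse IgG2 subclasses, measured 7.97, 7.41 and 7.84 log2 units with rat IgG and 8.53, 7.81 and 8.19 with anti-CD25, in the same order of replicates. Rat IgG 1 was the highest control and stood above anti-CD25 2. Means of 7.74 ± 0.29 and 8.18 ± 0.36 (SD, n = 3 each) gave a difference of 0.44 (SE 0.19, 95% interval -0.00086 to 0.88; limma adjusted p = 0.750). Single arrays moved this value, to 0.28 with rat IgG 2 left out and to 0.26 with anti-CD25 1 left out.

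Fcgr1, the high-affinity receptor, can hold monomeric IgG and is known as a target of interferon gamma. Its levels were 8.48, 8.38 and 8.74 log2 units with rat IgG and 8.87, 8.56 and 8.86 with anti-CD25. Here rat IgG 3 was the highest control, 0.18 above anti-CD25 2, so the overlap was the widest of the 5 genes. The difference of 0.23 (SE 0.12, 95% interval -0.049 to 0.51) was the smallest of the set (limma adjusted p = 0.750).

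Fcer1g, the shared signalling chain that also stabilises the activating receptors at the cell surface, followed Fcgr1 closely. It measured 10.59, 10.49 and 10.84 log2 units on the rat IgG arrays and 11.06, 10.71 and 11.00 on the anti-CD25 arrays. The order of the 6 arrays was that of Fcgr1, with rat IgG 2 lowest and anti-CD25 1 highest. The difference was 0.28 (SE 0.12, 95% interval -0.00055 to 0.56; limma adjusted p = 0.750).

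Fcgr2b, the inhibitory receptor, measured 10.40, 10.19 and 10.39 log2 units with rat IgG and 11.01, 10.32 and 10.77 with anti-CD25. The rat IgG arrays lay close together, with an SD of 0.12, and the anti-CD25 arrays were spread with an SD of 0.35. The difference was 0.38 (SE 0.16, 95% interval 0.011 to 0.74), a 1.30-fold change (limma adjusted p = 0.750). Left without anti-CD25 1 it was 0.22, and without anti-CD25 2 it was 0.57. The extracellular parts of Fcgr2b and Fcgr3 are known to be closely alike, and whether their probe sets read each other's transcripts was not tested.

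**Figure D1:**
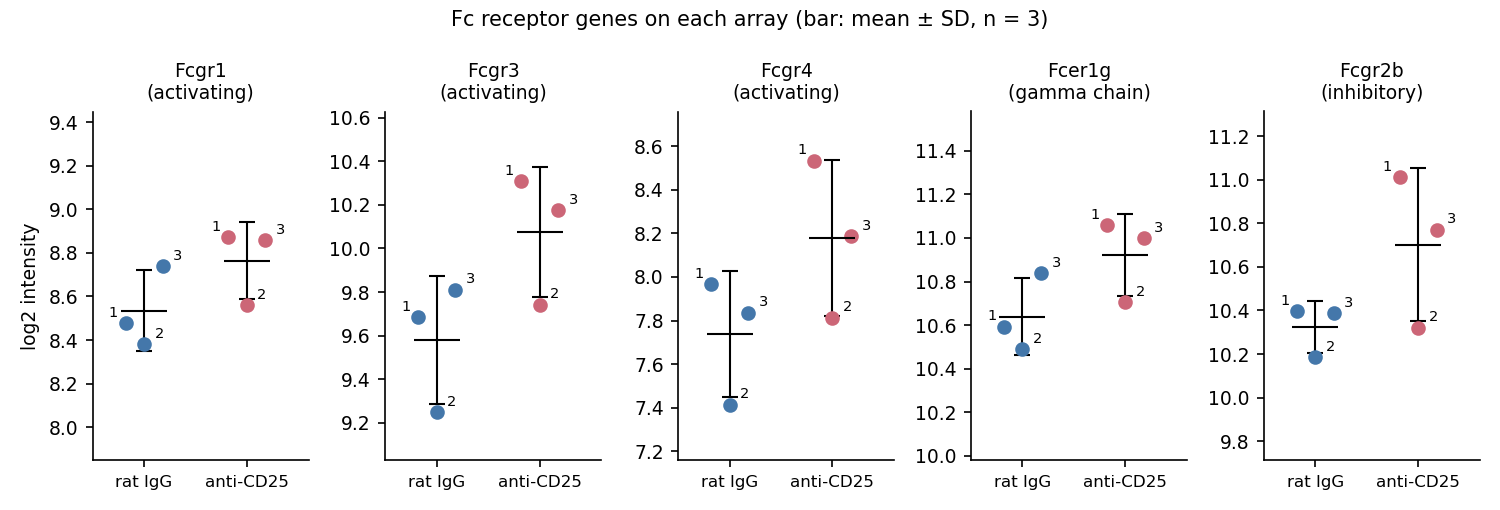
Log2 intensity (y axis) of each measured Fc receptor gene on the 6 arrays, by group (x axis); numbers are replicates and bars show mean ± SD, n = 3. In every panel anti-CD25 1 and 3 lie above all rat IgG arrays and anti-CD25 2 lies among them; panels have y axes of the same length but different position.

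Fcgr3 and Fcgr2b, 2 of the 5, had an unadjusted limma p under 0.05, which 2.30% of all genes reached in the higher direction and 6.28% in either. Since the genes were chosen with earlier results of these arrays known, this count describes the members and is no separate support. The median difference of the 5 genes was 0.38, that of Fcgr2b itself, against -0.026 over all genes, and 41.1% of all genes had a difference above 0.

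The treatment difference had the same sign in both kinds of array that Xist separates. Within the 4 arrays with high Xist it was 0.56 for Fcgr3, 0.48 for Fcgr4, 0.29 for Fcgr1, 0.34 for Fcer1g and 0.37 for Fcgr2b. Between the 2 arrays with low Xist, where there is no replicate, it was 0.36, 0.35, 0.12, 0.16 and 0.38 in the same order. The smallest values of the low-Xist pair were thus those of Fcgr1 and Fcer1g. With 1 low-Xist array per group, no usable test of unequal change between both kinds of array was available. Levels of Fcgr1, Fcgr3 and Fcer1g stood 0.21 to 0.25 higher on average on the low-Xist arrays, and those of Fcgr4 and Fcgr2b 0.080 and 0.10 higher.

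**Figure D2:**
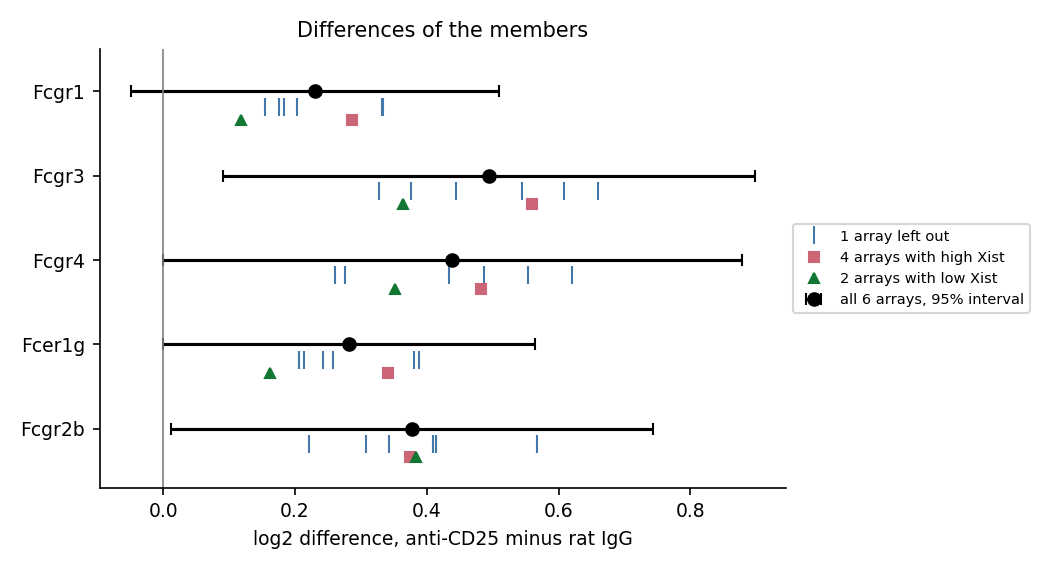
Log2 difference, anti-CD25 minus rat IgG (x axis), for each gene (y axis): circles with 95% limma intervals use all 6 arrays, ticks leave out 1 array, squares use the 4 arrays with high Xist and triangles the 2 with low Xist. Every point lies above 0, while the intervals of Fcgr1, Fcgr4 and Fcer1g include 0.

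The question of balance was put to each array by setting the mean of the 3 activating receptors against Fcgr2b, every gene being taken relative to its own mean over the 6 arrays. Both sides moved together. In replicate order the activating mean was -0.10, -0.46 and -0.016 with rat IgG and 0.43, -0.11 and 0.26 with anti-CD25, while Fcgr2b was -0.11, -0.33 and -0.13 and then 0.50, -0.19 and 0.26. The activating mean minus Fcgr2b came to 0.013, -0.14 and 0.11 with rat IgG and to -0.073, 0.085 and 0.0038 with anti-CD25. These values overlapped throughout, with the lowest and the highest array both in the rat IgG group. The group means were -0.0053 ± 0.12 and 0.0053 ± 0.079 (SD, n = 3 each), a difference of 0.011, well within the spread of either group. That difference ran from -0.056 to 0.068 with single arrays left out, was 0.069 within the 4 high-Xist arrays and -0.11 between the low-Xist pair, so its sign was not settled. A score over chosen genes is given without a p.

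Taken one receptor at a time over all 6 arrays, the balance was below 0 for Fcgr1 and above 0 for Fcgr3 and Fcgr4, but between the low-Xist pair it was below 0 for all 3 (-0.26, -0.020 and -0.031). Fcgr1 minus Fcgr2b was lower with anti-CD25 by 0.15 on average, at -0.28, 0.10 and -0.048 against -0.055, 0.058 and 0.22 with rat IgG. Fcgr3 minus Fcgr2b was 0.12 higher, at -0.018, 0.11 and 0.088 against -0.029, -0.25 and 0.11. Fcgr4 minus Fcgr2b was 0.062 higher, and -0.033 without rat IgG 2. In all 3 the groups overlapped. Leaving out rat IgG 2 brought the Fcgr3 value to 0.020, and leaving out anti-CD25 1 brought the Fcgr1 value from -0.15 to -0.045.

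**Figure D3:**
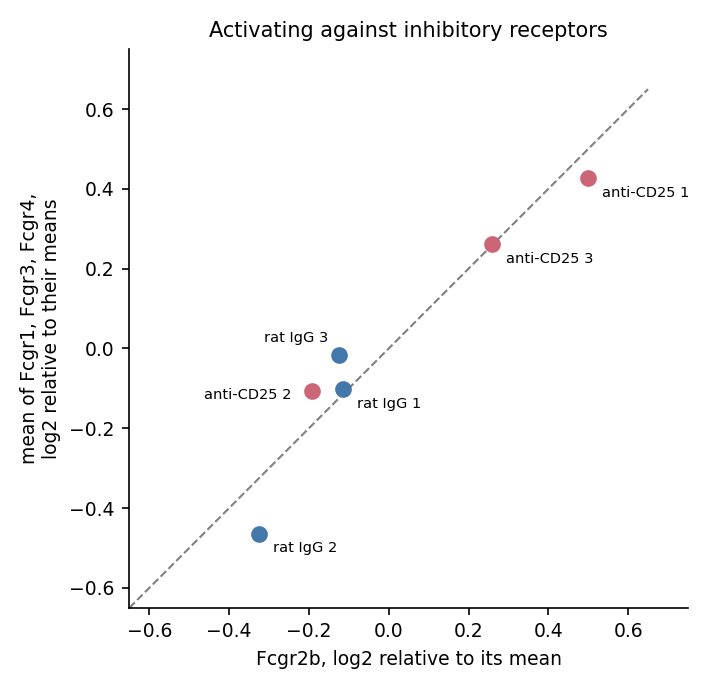
Mean of Fcgr1, Fcgr3 and Fcgr4 (y axis) against Fcgr2b (x axis) on each array, in log2 units relative to each gene's mean over the 6 arrays; the dashed line marks equal change. The 6 arrays lie within 0.14 log2 units of the line, with arrays of both groups on either side.

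Among the members, Fcgr1 and Fcer1g had the most similar profiles. The root mean square difference between them, over the 6 arrays after each gene was set relative to its mean, was 0.030 log2 units, against 0.10 for Fcgr3 and Fcgr4, the next closest pair, and 0.22 for Fcgr1 and Fcgr4, the farthest. Over all genes above the 30th percentile of mean level, the gene closest to Fcgr1 was Was (0.016), the actin regulator of leukocytes, followed by the histone gene H2ac15 (0.027) and Fcer1g. Closest to Fcer1g were Fcgr1, Was (0.032) and Ctsz (0.036), a lysosomal cathepsin. Fcgr3 was nearest to Cd68 (0.035), a lysosomal protein of macrophages, Cd84 (0.053) and Lgals3 (0.055), which encodes galectin-3. Fcgr4 was nearest to the lectin receptor Clec4a3 (0.042), Ms4a7 (0.066) and Adgre1 (0.074), a macrophage surface marker. Fcgr2b was nearest to Ftl1 (0.033), the ferritin light chain, Aph1c (0.045), a gamma-secretase subunit, and Tnfrsf1b (0.062), a receptor for TNF. These distances describe 6 arrays that share 1 treatment contrast, and a short distance is easier to reach among the many genes that vary little.

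Macrophage markers moved with the receptors. The 18 monocyte and macrophage markers, a list without Fc receptors, were higher in 16 members, with a median difference of 0.30. Over all genes 41.1% were higher and the median was -0.026. An unadjusted limma p under 0.05 was reached by 7 markers, all higher, against 2.30% of all genes in that direction. The groups did not overlap in the higher direction for 2 markers, against 4.28% of all genes. Of the 18 markers 0 passed the limma test adjusted over all genes. Averaged on each array, they stood at -0.092, -0.39 and 0.023 in the rat IgG replicates and at 0.34, -0.076 and 0.20 in the anti-CD25 replicates. The arrays highest and lowest in markers were those highest and lowest in all 5 receptor genes. Of the 18, 13 were higher between the low-Xist pair, and the median was 0.20 without rat IgG 2.

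**Figure D4:**
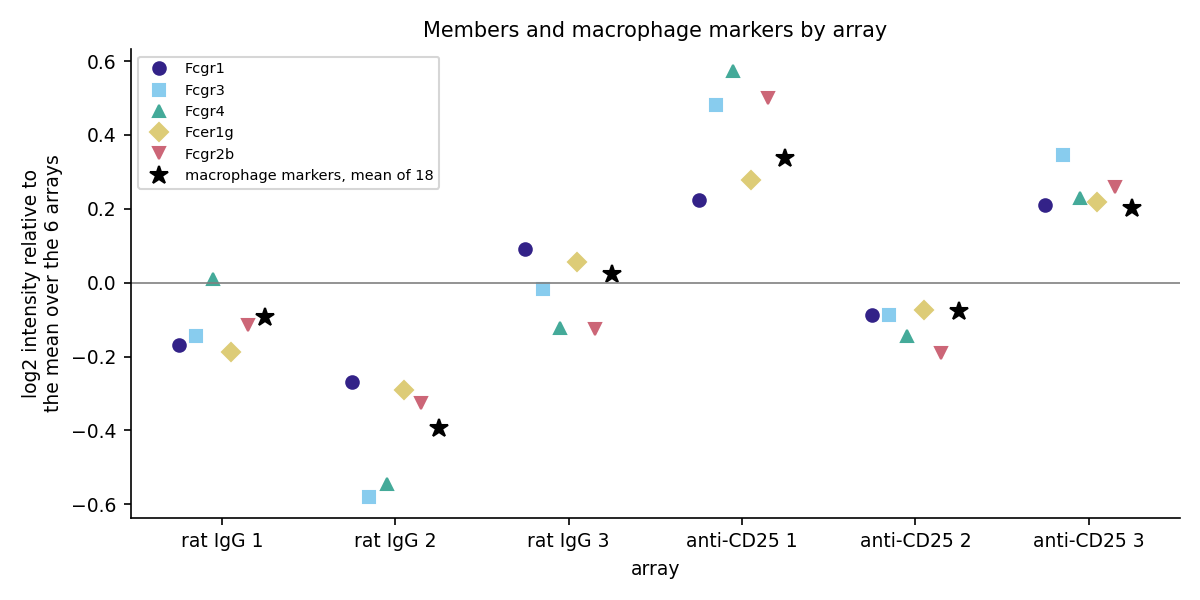
Log2 intensity relative to each gene's mean over the 6 arrays (y axis) for the 5 genes and for the mean of 18 macrophage markers (stars), by array (x axis). All 5 genes and the marker mean are highest on anti-CD25 1 and lowest on rat IgG 2.

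Set against that marker mean on the same array, the receptors differed less between groups. Fcer1g minus the marker mean was -0.095, 0.10 and 0.034 with rat IgG and -0.059, 0.0026 and 0.017 with anti-CD25, a difference of -0.026. Fcgr1 differed by -0.078, Fcgr2b by 0.069 and Fcgr4 by 0.13, all with overlapping groups. With single arrays left out, Fcer1g ran from -0.081 (rat IgG 1) to 0.017 (rat IgG 2) and Fcgr1 from -0.14 to -0.035 (the same arrays). Fcgr2b ran from 0.0048 (anti-CD25 1) to 0.14 (anti-CD25 2) and Fcgr4 from 0.044 (anti-CD25 1) to 0.21 (rat IgG 1). Fcgr2b stood at 0.0016 within the high-Xist arrays and at 0.20 between the low-Xist pair. Fcgr3 minus the marker mean was -0.052, -0.19 and -0.041 with rat IgG and 0.15, -0.010 and 0.14 with anti-CD25. Its groups did not overlap, although anti-CD25 2 cleared rat IgG 3 by a margin much smaller than the spread within either group. The difference was 0.19, from 0.14 to 0.24 with single arrays left out, 0.19 within the high-Xist arrays and 0.18 between the low-Xist pair. After this subtraction the median over all genes, most of which are not macrophage genes, was -0.33. The groups did not overlap in the higher direction for 0.116% of all genes. Among the 18 markers themselves 1 did so, Mertk at 0.40, while C1qc and Aif1 lay apart in the lower direction, as did 17.3% of all genes. The part of macrophage content in the receptor differences was not tested.

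**Figure D5:**
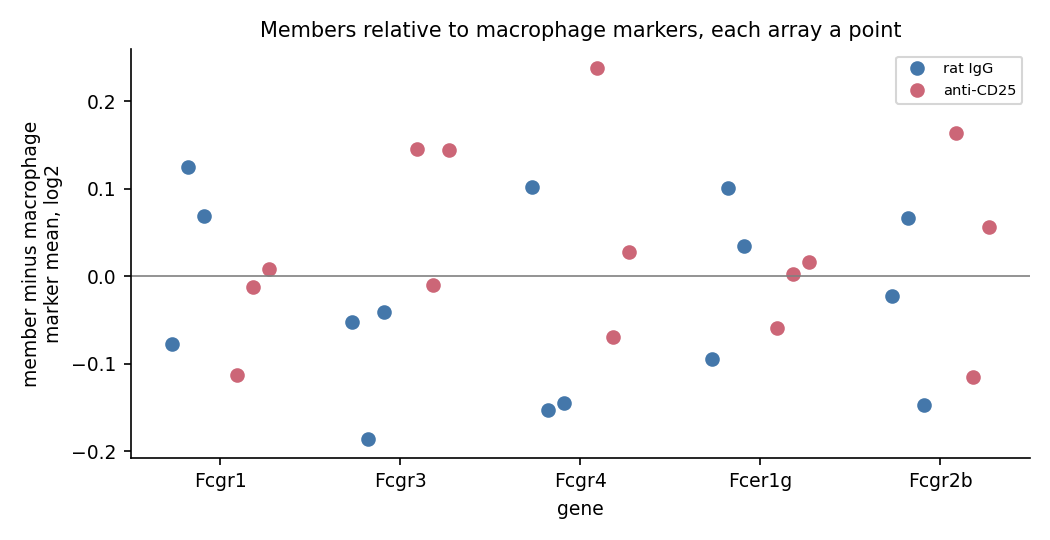
Each gene relative to its mean over the 6 arrays, minus the mean of 18 macrophage markers treated the same way (y axis, log2 units), by gene (x axis); each point is an array. The 3 anti-CD25 points lie above the 3 rat IgG points for Fcgr3 and overlap them for the other 4 genes.

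Markers of other cells that can carry these receptors were counted in the same way, without a test between lists. Over the 6 arrays 41.1% of all genes had a difference above 0. NK cell markers, which bear on Fcgr3, were higher in 4 of 8, with list means per array of -0.15 to 0.13 with rat IgG and -0.098 to 0.14 with anti-CD25. Of these 8, 6 lie below the 30th percentile of level, and the count was 3 when anti-CD25 1 was dropped and 6 when anti-CD25 2 was. B cell markers, which bear on Fcgr2b, were higher in 0 of 6, with a range of -0.0098 to 0.11 and of -0.16 to 0.058, but 4 of the 6 lie below the 30th percentile of level. Dropping rat IgG 1 gave a B cell count of 2 and dropping anti-CD25 2 gave 3. The same count was 2 after quantile normalizing again and 4 between the low-Xist pair. Neutrophil markers were higher in 4 of 10, with ranges of -0.078 to 0.12 and -0.12 to 0.083. Endothelial markers were higher in 2 of 10, with ranges of -0.0091 to 0.090 and -0.079 to 0.031. That count was 0 when rat IgG 1 was dropped or the arrays were quantile normalized again. It was 5 when either rat IgG 2, rat IgG 3 or anti-CD25 3 was dropped, 4 when anti-CD25 1 was, and 7 within the 4 high-Xist arrays, so it had no settled direction. Dendritic cell markers were higher in 3 of 7 and mast cell markers in 4 of 7. Array values are never 0, so no marker can be called absent.

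Genes of the ITAM pathway downstream of the activating receptors were higher in 21 of 22 measured members, with a median difference of 0.19, beside 41.1% of genes above 0 and a median of -0.026 over all genes. None passed the limma test adjusted over all genes, and 5 had an unadjusted p under 0.05, all higher, against 2.30% of all genes in that direction. Syk, the kinase that docks on the phosphorylated gamma chain, measured 8.16, 8.17 and 8.35 log2 units with rat IgG and 8.63, 8.30 and 8.55 with anti-CD25, a difference of 0.27 (SE 0.11). Here too anti-CD25 2 lay within the rat IgG range. Prkcd, a protein kinase C, measured 9.02, 8.79 and 9.07 and then 9.50, 9.11 and 9.27, without overlap, a difference of 0.33 (SE 0.12). Cblb, a ubiquitin ligase that limits such signals, differed by 0.25 (SE 0.093) and Vav3 by 0.26 (SE 0.11). These 3 were the only members of the list without overlap, against 4.28% of all genes in that direction. Src was the 1 lower member, at -0.11. The list had 15 of 22 higher between the low-Xist pair, and its median was 0.087 without rat IgG 2 and 0.28 with rat IgG 3 dropped instead.

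The inhibitory side of the pathway had a smaller median than the ITAM list. Of 10 genes that act at ITIMs, 7 were higher, beside 41.1% of all genes. Their median difference was 0.060, against -0.026 over all genes. It was 0.031 without rat IgG 1 or anti-CD25 1 and 0.029 between the low-Xist pair. The groups did not overlap in the higher direction for 2 of the 10, against 4.28% of all genes. An unadjusted limma p under 0.05 was reached by 2, both higher, against 2.30% of all genes in that direction. Inpp5d, which encodes SHIP-1, the lipid phosphatase that Fcgr2b recruits, had the largest difference. It measured 8.97, 8.62 and 9.21 log2 units with rat IgG and 9.46, 9.18 and 9.45 with anti-CD25, a difference of 0.43 (SE 0.15). Anti-CD25 2 lay just below rat IgG 3. Its broadly expressed relative Inppl1, which encodes SHIP-2, differed by -0.18 (SE 0.10). Ptpn22, a tyrosine phosphatase of leukocytes, differed by 0.33 (SE 0.13) without overlap, and the adaptor Dok1 by 0.22 (SE 0.098). None passed the limma test.

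Other receptors that pair with ITAM adaptors or carry ITIMs were listed for comparison. Of 13 receptors and adaptors of the ITAM kind, 9 were higher, with a median of 0.23, but 4 were higher between the low-Xist pair, where the median was -0.081. With rat IgG 1, 2 or 3 dropped the median was 0.093, 0.12 or 0.37, and with anti-CD25 1 dropped it was 0.15. Tyrobp, the adaptor DAP12 of macrophages and NK cells, measured 10.04, 9.69 and 10.16 log2 units with rat IgG and 10.69, 9.98 and 10.36 with anti-CD25, a difference of 0.38 (SE 0.18). Clec4d differed by 0.48 (SE 0.23) and Nfam1 by 0.32 (SE 0.16). Oscar, a collagen receptor that signals through Fcer1g, differed by -0.27 (SE 0.096), with groups that did not overlap in the lower direction, as in 7.46% of all genes. Of 16 myeloid receptors with ITIMs, 12 were higher, with a median of 0.21, beside 41.1% of all genes above 0. Of these, 6 had an unadjusted p under 0.05 in limma, all higher, against 2.30% of all genes in that direction. Milr1 was 0.46 (SE 0.14) higher and Lilrb4a 0.43 (SE 0.14), both without overlap, and Cd200r1 and Clec4a2 differed by 0.56 (SE 0.20) and 0.49 (SE 0.20) with overlap. Dropping rat IgG 2 gave a median of 0.10, dropping rat IgG 3 one of 0.34 and dropping anti-CD25 2 one of 0.38. None of either list passed the limma test adjusted over all genes.

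Fc receptors for other antibody classes and other IgG binders had no settled direction. Of 14 measured, 5 were higher and 9 lower, with a median difference of -0.067, and 9 lay below the 30th percentile of level, where differences are understated. B2m, the light chain with which Fcgrt pairs, was the member with the largest statistic. It measured 12.68, 12.50 and 12.59 log2 units with rat IgG and 12.81, 12.68 and 12.78 with anti-CD25, a difference of 0.17 (SE 0.085). The groups did not overlap, but rat IgG 1 and anti-CD25 2 were equal to 2 decimals. B2m also pairs with class I histocompatibility chains and so does not stand for Fcgrt. Pigr, which carries IgA and IgM across epithelia, differed by -0.22 (SE 0.13), the IgE receptor Fcer2a by -0.15 (SE 0.090) and Fcrla by -0.17 (SE 0.13), all dim and overlapping. The list median was -0.024 when rat IgG 2 was dropped, -0.025 when anti-CD25 1 was and -0.14 when anti-CD25 3 was. Its sign turned to 0.20 in the low-Xist pair, where 11 were higher. It also turned to 0.0017 with 8 higher when anti-CD25 2 was dropped, and to 0.00042 with 7 higher when the arrays were quantile normalized again. The list means per array were 0.082, 0.056 and -0.077 with rat IgG and -0.049, -0.12 and 0.11 with anti-CD25. They were above 0 on the arrays with the higher lower quartiles.

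Known regulators of Fc gamma receptor expression were split, with 9 of 17 higher and a median of 0.049. That median moved to 0.027, 0.0046 or 0.026 when anti-CD25 1, 2 or 3 was dropped, to 0.0056 when rat IgG 2 was and to 0.15 when rat IgG 3 was. Ifngr1, the ligand-binding chain for interferon gamma, measured 10.26, 10.21 and 10.40 log2 units with rat IgG and 10.56, 10.48 and 10.58 with anti-CD25, a difference of 0.25 (SE 0.085) without overlap. Il4ra, the receptor chain for interleukins 4 and 13, differed by 0.39 (SE 0.13), Tnf by -0.33 (SE 0.12) and Csf2 by -0.21 (SE 0.10), with overlap in each. Csf2 lay below the 30th percentile of level. A further pair of members is named after their values were seen, because the promoter words above refer to their products or signals. Spi1, which encodes PU.1, differed by 0.25 (9.13 ± 0.16 and 9.39 ± 0.23, SD, n = 3 each) and Ifng by -0.080 (5.82 ± 0.24 and 5.74 ± 0.032, SD, n = 3 each), the latter below the 30th percentile of level. None of the 17 passed the limma test adjusted over all genes.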

How the data were processed

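RNA from 6 muscle samples was hybridised to Affymetrix arrays, 1 per sample. The authors deposited linear intensity values for 24922 probe sets, made with RMA in Affymetrix Power Tools per the submitters' processing notes, with versions not given in the sources used here. RMA corrects background and is meant to equalise array distributions, but the lower quartiles of the deposited values still differed. It draws dim values together. Log2 was taken with no pseudocount. Of the probe sets 21425 had 1 symbol in the platform annotation, 1399 had several and 2098 had none there; the probe set with the highest mean stood for each of 19752 genes. Each receptor had 1 probe set. Limma 3.58.1 in R 4.3.3 (lmFit, eBayes, two-sided) was fitted to all genes with group as the only term, adjusted by Benjamini-Hochberg at 0.05. It was checked on simulated data with changes larger than any receptor difference here, so that check does not cover differences of their size.

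The members and lists were chosen with earlier results of these data known. Lists are given by counts and medians beside all genes. Named from each pathway list were the 4 genes with the largest statistic, and for each receptor the 3 genes with the most similar profile; of the marker lists only counts and ranges, and single markers after their values were seen. Alternatives were other normalizations, filters, weights, Xist, a replicate block and left-out arrays. Promoter sequences are from RefSeq (GRCm38.p6).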

Additional observations from a re-analysis of the deposited data

How the results depend on the processing

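The Fcgr1, Fcgr3, Fcgr4, Fcer1g and Fcgr2b differences kept their sign in all 17 alternatives each, some of which could not change it. None passed the adjusted threshold in those with a test, which leaves out the low-Xist pair, with a lowest limma adjusted p of 0.164 (Fcgr3, 4 arrays with high Xist). With single arrays left out they ran from 0.15 to 0.33 for Fcgr1, 0.33 to 0.66 for Fcgr3, 0.26 to 0.62 for Fcgr4, 0.21 to 0.39 for Fcer1g and 0.22 to 0.57 for Fcgr2b. The activating minus inhibitory difference ran from -0.11 to 0.069 over 12 alternatives. The mean of all probe sets and the replicate block could not move any of these differences. The 30th percentile filter and another variance estimate could not move those of single genes. Median centring could not move the activating minus inhibitory difference. Without rat IgG 3, 7 genes passed the limma threshold, none of them among the 5, and 0 did when those 5 arrays were quantile normalized again, an alternative chosen after seeing the data; without any other array 0 passed. With 0 genes past the adjusted threshold, 1240 had an unadjusted p under 0.05. Whether the number in the titles pairs the samples was not settled. Deviations from the group means correlated at 0.030, -0.0070 and -0.17 between same-numbered arrays over all genes, which cannot exclude pairing. Xist was low on replicate 3 of both groups. With the number as a replicate block 0 genes passed, and the Fcgr3 difference of 0.49 had an adjusted p of 0.650 in limma. Its SE was 0.10 with the block and 0.18 without. For Fcgr4 the SE was 0.10 and 0.19, and for Fcgr2b 0.12 and 0.16. For Fcgr1 it was 0.10 and 0.12, and for Fcer1g 0.11 and 0.12. Fcgrt had no value under any setting. List counts with arrays left out were added after seeing the data.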
